A study of Mus musculus with 16 samples.

Results

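T-box factors are transcription factors that share a DNA-binding domain named after the gene T (brachyury), and 6 of them are described here in the epithelium and the mesenchyme of 2 salivary glands of the mouse embryo: Tbx1, Tbx2, Tbx3, Tbx15, Tbx18 and Tbx22. They were chosen by name with their levels in these libraries already known, so their levels and fold changes are a description and carry no p-value. They are 6 of 48709 gene features in the deposited count table and 6 of the 18191 genes that passed the filter on low counts, and all 6 passed it. RNA had been sequenced from 16 libraries of tissue harvested on embryonic day 13 from wild-type ICR mice, 4 libraries in each of 4 groups: parotid epithelium, submandibular epithelium, parotid mesenchyme and submandibular mesenchyme. All groups share strain, genotype and age, and none was treated. The design text also speaks of glands kept in culture for 6 days, while titles and protocol name tissue of day 13, and the age is given here as in the titles. The number and sex of the embryos behind a library were not stated in the labels. The series as a whole concerns recombination of the tissues of these glands, and the comparisons below ask which T-box genes differed between the glands within a layer and between the layers within a gland.

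T-box proteins bind a short conserved DNA element, and many of them recruit corepressors of the Groucho family or histone deacetylases, while others mainly activate. Tbx2 and Tbx3 are close relatives and chiefly repressors, Tbx1 patterns the pharyngeal arches, from which the jaws, the face and the salivary glands arise, and Tbx15, Tbx18 and Tbx22 form a related branch that is best known from mesenchyme of the limb, the urinary tract and the palate. A salivary gland forms when a bud of oral epithelium grows and branches inside a condensed mesenchyme, and signals pass between the layers in both directions.

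The separation of the layers was checked with markers. The 15 epithelial markers reached a sum of 3117 to 3581 CPM (the deposited counts scaled by depth and TMM factor) in parotid epithelium and 3186 to 3851 CPM in submandibular epithelium, against 17.0 to 58.6 CPM in parotid mesenchyme and 40.6 to 66.1 CPM in submandibular mesenchyme. The 15 mesenchymal markers reached sums of 299.5 to 569 CPM in parotid epithelium, and of 132 to 473 CPM in submandibular epithelium, against 23486 to 33147 CPM in parotid mesenchyme and 15370 to 17492 CPM in submandibular mesenchyme. None of either list was at 0 in a whole group. The highest mesenchymal sum in submandibular epithelium was that of replicate 3, at 473 CPM, and the other 3 libraries of that group had 132 to 218 CPM. Gene counts per library summed to between 16912258 and 27646844. The labels call the 4 libraries of a group independent replicates. In bulk tissue, fewer cells of a type and less RNA per cell cannot be told apart.

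In coordinates of GRCm38, Tbx1 lies on the minus strand at chr16:18580979-18590671, Tbx2 on the plus strand at chr11:85832551-85841948 and Tbx3 on the plus strand at chr5:119670669-119684724. Tbx15 lies on the plus strand at chr3:99240381-99354259, Tbx18 on the minus strand at chr9:87702800-87731260 and Tbx22 on the plus strand at chrX:107667964-107688978. The 250 bases before an annotated start were found for 3 of the 6 genes in a RefSeq promoter table of GRCm38.p6, at 6 starts. They are shown for Tbx1, whose RNA parted the epithelia, and for Tbx18 and Tbx22, which parted the mesenchymes in opposite directions. Each is written 5′ to 3′ on the strand of its gene, with matches to searched motifs in capitals, and counts per gene do not tell which start was used.
Tbx1, outer start, chr16:18590672-18590921, minus strand: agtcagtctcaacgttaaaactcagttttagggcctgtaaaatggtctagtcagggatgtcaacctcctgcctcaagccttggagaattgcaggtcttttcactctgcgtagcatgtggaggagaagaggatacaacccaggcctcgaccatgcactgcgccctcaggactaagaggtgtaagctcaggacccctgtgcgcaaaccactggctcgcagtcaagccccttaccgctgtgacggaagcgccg
Tbx1, inner start, chr16:18588900-18589149, minus strand: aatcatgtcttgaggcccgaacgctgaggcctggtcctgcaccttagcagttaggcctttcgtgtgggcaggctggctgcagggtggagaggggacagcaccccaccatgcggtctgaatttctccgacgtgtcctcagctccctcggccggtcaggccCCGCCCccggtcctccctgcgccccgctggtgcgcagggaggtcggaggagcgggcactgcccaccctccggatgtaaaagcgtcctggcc
Tbx18, chr9:87731261-87731510, minus strand: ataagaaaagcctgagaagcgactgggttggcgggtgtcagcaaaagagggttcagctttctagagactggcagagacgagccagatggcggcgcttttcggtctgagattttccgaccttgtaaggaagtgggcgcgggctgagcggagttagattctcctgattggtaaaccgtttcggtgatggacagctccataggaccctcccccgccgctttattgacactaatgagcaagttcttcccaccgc
Tbx22, outermost start, chrX:107667714-107667963, plus strand: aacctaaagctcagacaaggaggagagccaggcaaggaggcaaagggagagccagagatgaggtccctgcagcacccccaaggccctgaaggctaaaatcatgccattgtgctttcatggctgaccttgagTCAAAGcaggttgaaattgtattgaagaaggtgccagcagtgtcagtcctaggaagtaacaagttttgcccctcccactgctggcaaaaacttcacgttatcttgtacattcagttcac
The motifs searched on both strands were GGTGTGA for the core site of T-box proteins, TATAAA for the promoter element of that name, GGGCGG for the site of SP factors, TAATTA for the homeobox core and CTTTGA for the core of the TCF/LEF proteins, the nuclear effectors of WNT signalling. The inner start of Tbx1 had 1 SP factor motif, held by 32.7% of 32851 windows of the same length, and the outermost start of Tbx22 had 1 TCF/LEF core, held by 13.8%. None of these letters was found in the window of Tbx18 or in the other 3 windows. The T-box motif was in none of the 6 windows, against 3.33% of all windows, the TATA motif is held by 12.4% and the homeobox core by 4.84%. The outer window of Tbx1 was 54.4% G or C, its inner window 67.2%, that of Tbx18 54% and that of Tbx22 49.6%.

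**Figure D1:**
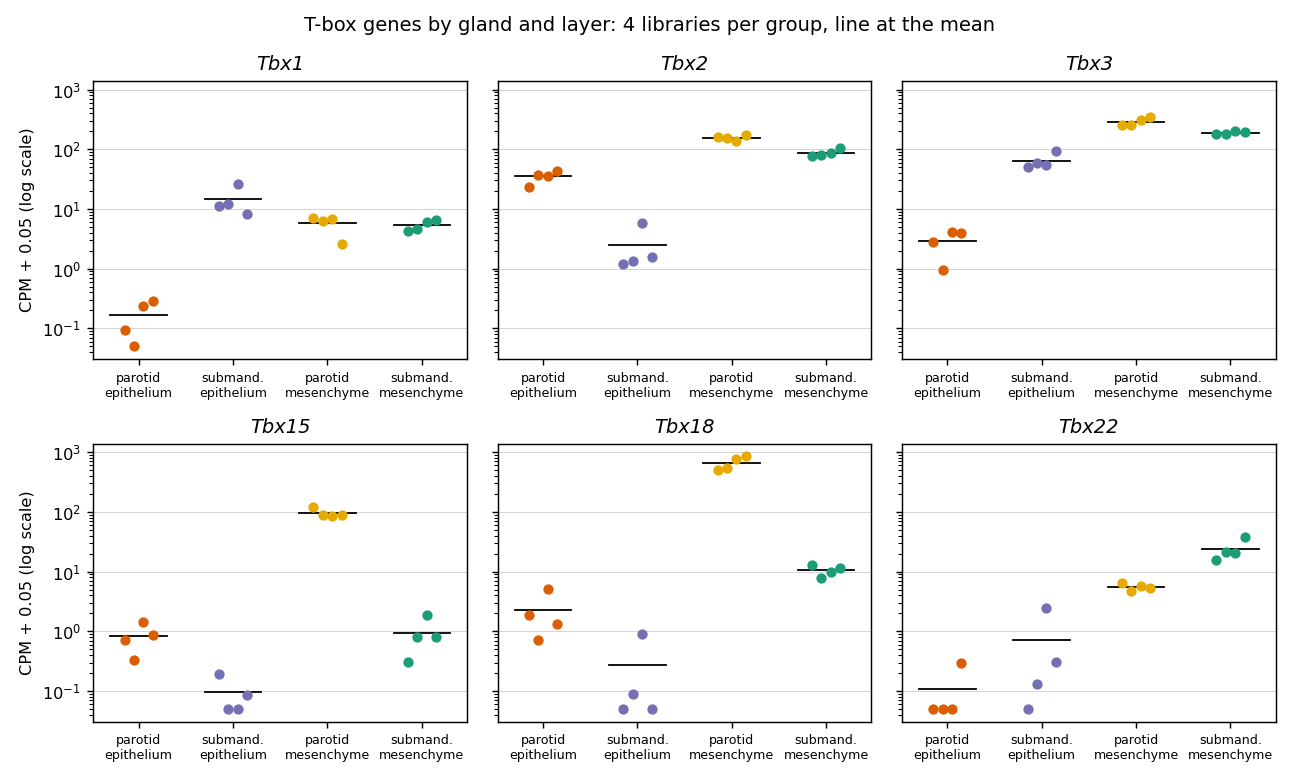
CPM plus 0.05 on a log axis for each of the 6 T-box genes, in 4 libraries (points) of each of 4 groups, with a line at the mean. Tbx2 and Tbx3 stand in opposite order in the epithelia, Tbx1 is near 0 only in parotid epithelium, Tbx15 and Tbx18 stand high in parotid mesenchyme, and Tbx22 stands highest in submandibular mesenchyme.

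In the epithelium, the glands differed in which of the close relatives Tbx2 and Tbx3 they held, and in Tbx1. Tbx2, a repressor of cell cycle inhibitors in several cell types, was at 23.2, 37.4, 35.6 and 43.8 CPM in the parotid libraries, against 1.15, 1.29, 5.67 and 1.54 CPM in the submandibular libraries. The lowest parotid library was above the highest submandibular one. Tbx2 averaged 35.0 ± 8.63 CPM in parotid epithelium and 2.41 ± 2.18 CPM in submandibular epithelium (SD, n = 4 each), a log2 fold change of 3.93 (SE 0.39) in edgeR's fit to all 16 libraries. Replicate 3 of the submandibular epithelium, the library with the highest mesenchymal marker sum, also had the highest Tbx2, and without it the log2 fold change was 4.74. The part of mesenchymal RNA in that value was not tested.

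Tbx3, which keeps progenitors undifferentiated in several organs, had the opposite order. It was at 2.75, 0.891, 4.00 and 3.95 CPM in parotid epithelium, against 51.1, 59.5, 53.6 and 93.2 CPM in submandibular epithelium. The groups lay far apart, with means of 2.90 ± 1.46 and 64.4 ± 19.6 CPM (parotid and submandibular epithelium, SD, n = 4 each) and a log2 fold change of -4.47 (SE 0.31). Per kb of exon, which allows genes to be compared, Tbx2 stood above Tbx3 in each parotid epithelial library, 15.4 to 76.6 times, and Tbx3 stood above Tbx2 in each submandibular one, 5.17 to 33.2 times. The smallest of these last ratios was again that of replicate 3. In the mesenchymes the ratio of Tbx2 to Tbx3 per kb was close to even, at 0.834 to 1.15 in parotid and 0.783 to 0.979 in submandibular mesenchyme, so that the exchange between the relatives was seen in the epithelial libraries.

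Tbx1, a gene of arch endoderm, arch mesoderm and ectodermal derivatives such as the enamel epithelium of teeth, was nearly absent from parotid epithelium. It had 0.0424, 0, 0.188 and 0.241 CPM there, 10 counts over the 4 libraries, against 11.2, 11.8, 26.3 and 8.10 CPM in submandibular epithelium, 1324 counts. The means were 0.118 ± 0.115 and 14.4 ± 8.14 CPM (parotid and submandibular epithelium, SD, n = 4 each), and the log2 fold change of -6.89 (SE 0.59) ranked 16th by size of 18191 genes. Replicate 3 was the highest submandibular library for Tbx1 as well, but the other 3 were also each above every parotid library. Per kb, Tbx1 stood at 0.164 to 0.926 of Tbx3 in submandibular epithelium.

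Tbx15 and Tbx18 were low in both epithelia. Tbx15, a factor of skeletal and skin mesenchyme, was at 0.678, 0.281, 1.37 and 0.818 CPM in parotid epithelium, against 0.144, 0, 0 and 0.0366 CPM in submandibular epithelium, the second group resting on 5 counts in all, 4 of them in 1 library. Tbx18, a factor of the mesenchyme around the ureter and of the sinus node of the heart, was at 1.86, 0.656, 5.04 and 1.30 CPM in parotid epithelium, against 0, 0.0403, 0.848 and 0 CPM in submandibular epithelium. The Tbx15 libraries did not overlap, and the Tbx18 libraries did, since replicate 3 of the submandibular epithelium was above replicate 2 of the parotid epithelium. The log2 fold changes were 3.81 (SE 0.80) for Tbx15 and 3.61 (SE 0.88) for Tbx18. Single libraries moved them: Tbx15 was at 5.32 without submandibular epithelium replicate 1, and Tbx18 was at 6.94 without submandibular epithelium replicate 3 and at 2.84 without parotid epithelium replicate 3. Tbx22, known from cleft palate with tied tongue in humans, had 0, 0, 0 and 0.241 CPM in parotid epithelium, against 0, 0.0805, 2.38 and 0.256 CPM in submandibular epithelium. These groups overlapped, and replicate 3 held 45 of the 54 submandibular counts. The log2 fold change of -3.28 (SE 1.35) was not called and ran from -6.73 without parotid epithelium replicate 4 to -0.88 without submandibular epithelium replicate 3. It was called with DESeq2, at -3.50, and without submandibular epithelium replicate 1, at -3.72. Mesenchymal markers moved with the gland in epithelium: 7 of 15 were called, each higher in parotid epithelium, at the sums given above. Of all genes tested, 20.9% were called there, 11.2% higher and 9.72% lower. The macrophage and leukocyte markers summed to 22.1 to 34.5 CPM in parotid epithelium, against 3.70 to 12.6 CPM for submandibular epithelium, with 9 of 12 called higher. Of 12 endothelial markers 5 were called higher and 1 lower, with sums of 10.5 to 20.8 CPM in parotid epithelium, against 12.03 to 16.6 CPM for submandibular epithelium. In the other lists, 2 of 10 skeletal muscle, 2 of 11 Schwann cell lineage and 3 of 9 cartilage and bone markers were called, each higher. Schwann cell lineage sums were 516 to 875 CPM in parotid and 366 to 591 CPM in submandibular epithelium. They were lower in mesenchyme, at 159 to 227 CPM in parotid and 94.2 to 170 CPM in submandibular gland. Cartilage and bone sums were 1537 to 2477 CPM in parotid and 953 to 1883 CPM in submandibular epithelium. These were lower in mesenchyme too, at 201 to 240.4 CPM in parotid and 68.8 to 115 CPM in submandibular gland. Which cells held these markers was not tested. Smooth muscle and pericyte markers had 2 of 12 higher and 2 lower, and neuron markers 2 of 11 higher and 1 lower. Erythroid markers had 0 of 9 called, and epithelial markers 3 of 15, each lower. The part of cells other than epithelium in the low levels of Tbx15 and Tbx18 was not tested.

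In the mesenchyme, Tbx18 and Tbx15 were the T-box genes that parted the glands most. Tbx18 was at 498, 538, 774 and 853 CPM in parotid mesenchyme, against 13.1, 7.83, 9.80 and 11.7 CPM in submandibular mesenchyme. With means of 666 ± 174 and 10.6 ± 2.29 CPM (parotid and submandibular mesenchyme, SD, n = 4 each), the log2 fold change was 5.97 (SE 0.51), and every parotid library was above every submandibular one. Tbx15 was at 121.5, 89.0, 86.2 and 89.3 CPM in parotid mesenchyme, against 0.255, 0.748, 1.86 and 0.761 CPM in submandibular mesenchyme. It averaged 96.5 ± 16.7 CPM in parotid libraries, against 0.905 ± 0.676 CPM in submandibular ones (SD, n = 4 each), and its log2 fold change of 6.73 (SE 0.42) was 7.35 without submandibular mesenchyme replicate 3, the library with the highest value of that group. Replicate 1 stood above the other parotid libraries for Tbx15 and below them for Tbx18, so the ratio of Tbx18 to Tbx15 per kb ran from 3.26 to 7.59 among the 4 libraries.

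Tbx22 had the opposite order in mesenchyme. It was at 6.33, 4.76, 5.80 and 5.32 CPM in parotid mesenchyme, against 15.3, 21.0, 20.8 and 37.9 CPM in submandibular mesenchyme. The groups did not overlap, and the parotid libraries lay close together while the submandibular ones were spread more than 2-fold. The means were 5.55 ± 0.668 and 23.8 ± 9.78 CPM (parotid and submandibular mesenchyme, SD, n = 4 each), with a log2 fold change of -2.10 (SE 0.69). In the fits that left out a library it ran from -2.26 to -1.78, and the value nearest to 0 was that without submandibular mesenchyme replicate 4.

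Tbx2, Tbx3 and Tbx1 differed less between the mesenchymes. Tbx2 was at 158, 156, 139 and 174 CPM in parotid mesenchyme, against 76.0, 79.8, 86.0 and 105 CPM in submandibular mesenchyme, with no overlap and a log2 fold change of 0.85 (SE 0.32). Tbx3 was at 250.3, 259, 303 and 353 CPM in parotid mesenchyme, against 177, 179.8, 199 and 197 CPM in submandibular mesenchyme, also with no overlap, and its log2 fold change was 0.63 (SE 0.25). Tbx1 was at 7.13, 6.35, 6.67 and 2.56 CPM in parotid mesenchyme, against 4.18, 4.54, 5.93 and 6.58 CPM in submandibular mesenchyme. The Tbx1 groups overlapped, and the log2 fold change was 0.10 (SE 0.40). The low parotid library for Tbx1, replicate 4, was also low in the sum of 12 skeletal muscle markers, with 406 CPM against 1427 to 1665 CPM in the other 3. Muscle precursors of the head express Tbx1, and the part of muscle cells in that value was not tested.

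Markers of several other cell types, though not of all, moved with the gland in mesenchyme. Of all genes tested, 34.5% were called there, 20.8% higher and 13.7% lower in parotid. The skeletal muscle markers summed to 406 to 1665 CPM in parotid mesenchyme and 179 to 373 CPM in submandibular mesenchyme, and 9 of 10 tested were higher in parotid by the edgeR test. The smooth muscle and pericyte markers summed to 539.9 to 679 CPM in parotid and 203 to 235 CPM in submandibular mesenchyme, with 8 of 12 higher, and the neuron markers to 1267 to 2167 CPM in parotid and 108 to 301 CPM in submandibular mesenchyme, with 5 of 11 higher and 3 lower. None of these markers was at 0 in a whole mesenchyme group. The cartilage and bone markers summed to 201 to 240.4 CPM in parotid and 68.8 to 115 CPM in submandibular mesenchyme, with 4 of 9 tested higher and 3 lower, and Matn1 was at 0 in both groups. The erythroid markers summed to 1453 to 2192 CPM in parotid and 3330 to 4180 CPM in submandibular mesenchyme, with 1 of 9 lower. Of the endothelial markers 0 of 12 were called, and of the macrophage and leukocyte markers 2 of 12 were higher. The Schwann cell lineage markers had 2 of 11 higher and 1 lower, and the epithelial markers 2 of 15 higher and 2 lower. Pericytes are a known site of Tbx18. The part of these cells in the mesenchymal values of the T-box genes was not tested.

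The T-box genes were called by the edgeR test (adjusted p under 0.05 over all genes tested) as follows, a count fixed in part by how they were chosen and therefore only a description. Between the epithelia 5 of the 6 were called, 3 higher and 2 lower in parotid, where 20.9% of all genes tested were called, 11.2% higher and 9.72% lower. The libraries did not overlap for 4 of them, where 20.7% of all genes did not overlap. Without submandibular epithelium replicate 1 the number of genes called among all those tested was 2452, against 3801 with it. Between the mesenchymes 4 of the 6 were called, 3 higher and 1 lower in parotid, where 34.5% of all genes were called, 20.8% higher and 13.7% lower. There 5 did not overlap, and 36.8% of all genes did not. The mesenchymal call of Tbx2 was lost in 5 of 7 other settings and in 12 of 16 fits without 1 library, those without any 1 mesenchymal library, without replicate 2, 3 or 4 of parotid epithelium or without submandibular epithelium replicate 4. That of Tbx22 was lost in 2 of 7 and 5 of 16, those without any 1 parotid mesenchyme library or without submandibular mesenchyme replicate 4. Tbx3 was called there with limma-voom, with a block for the replicate number, and without replicate 2 of parotid epithelium or replicate 4 of submandibular epithelium. Nothing is read from these counts.

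**Figure D2:**
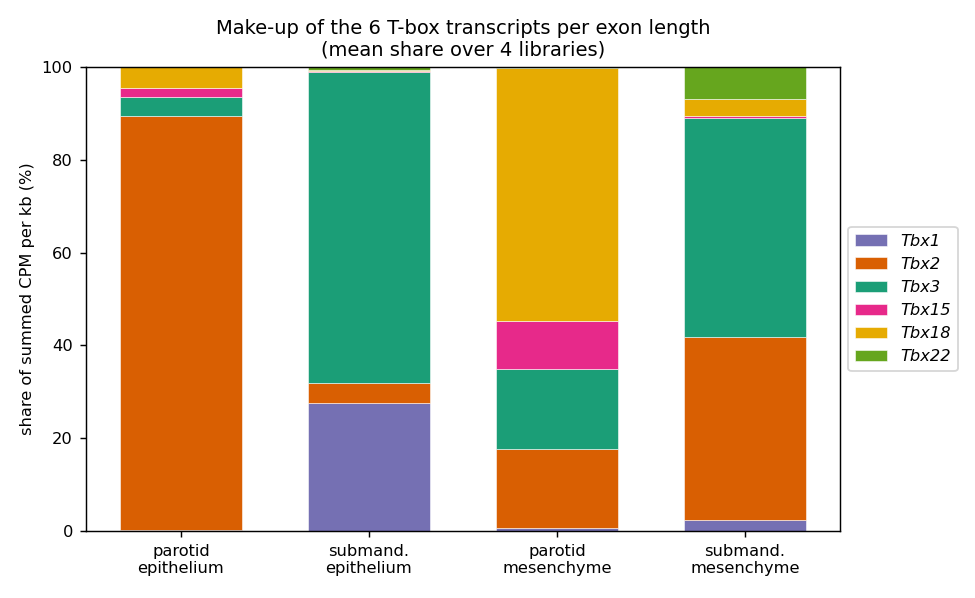
Mean share of each of the 6 genes in their summed CPM per kb of exon (%), over 4 libraries of each group, stacked to 100%. Tbx2 makes up 89.1% in parotid epithelium, Tbx3 67.1% in submandibular epithelium and Tbx18 54.3% in parotid mesenchyme, while Tbx3 and Tbx2 share most of submandibular mesenchyme.

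Each group thus had its own make-up of T-box transcripts. Summed per kb of exon, the 6 genes reached 10.8 ± 2.52 CPM per kb in parotid epithelium, 14.6 ± 3.14 in submandibular epithelium, 256.6 ± 41.7 in parotid mesenchyme and 60.6 ± 7.04 in submandibular mesenchyme (SD, n = 4 each). In parotid epithelium Tbx2 made up 89.1 ± 6.14% of that sum. In submandibular epithelium Tbx3 made up 67.1 ± 15.8% and Tbx1 27.6 ± 11.7%. In parotid mesenchyme Tbx18 made up 54.3 ± 5.96%, Tbx3 17.2 ± 0.382%, Tbx2 17.1 ± 2.76% and Tbx15 10.3 ± 3.08%. In submandibular mesenchyme Tbx3 made up 47.1 ± 3.20%, Tbx2 39.4 ± 1.42% and Tbx22 6.91 ± 2.01%, and Tbx15 and Tbx18 together had the small remainder with Tbx1. The shares of Tbx2 and Tbx3 in parotid mesenchyme did not differ beyond their spread.

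**Figure D3:**
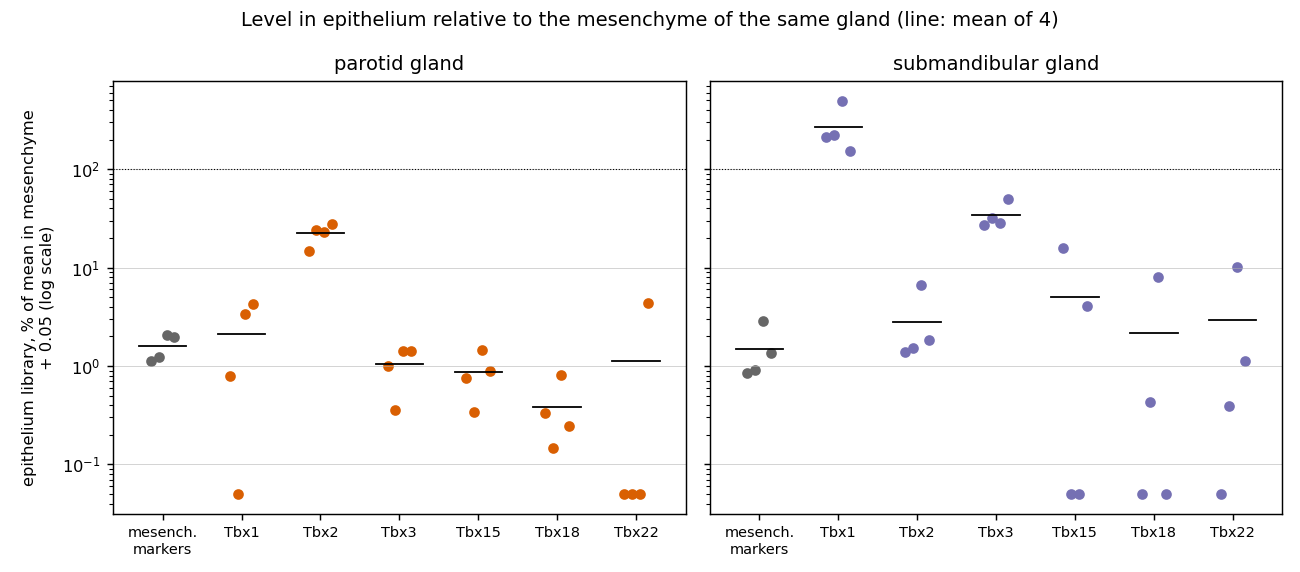
Level in each epithelial library (points, line at the mean of 4) as a percentage of the mean of the mesenchyme of the same gland, plus 0.05, on a log axis, for the sum of 15 mesenchymal markers and for the 6 T-box genes. Only Tbx1 in the submandibular gland lies above 100%, and Tbx2 in parotid and Tbx3 in submandibular gland lie above the marker sum in every library.

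Between the layers, 5 of the 6 genes were lower in epithelium than in mesenchyme in both glands, and Tbx1 alone among them was higher in epithelium, in the submandibular gland. In parotid gland all 6 were called lower in epithelium, where 64.9% of all genes were called, 31.4% higher and 33.5% lower, and the libraries overlapped for none, where 57.7% of all genes did not overlap. In submandibular gland 5 were called lower and Tbx1 higher, where 67% of all genes were called, 33.3% higher and 33.7% lower, and none overlapped, where 62.6% of all genes did not. To set these values beside the mesenchymal RNA in the epithelial libraries, each epithelial library was expressed as a percentage of the mean of its own mesenchyme. The summed mesenchymal markers were at 1.07 to 2.04% in parotid epithelium, against 0.790 to 2.83% for submandibular epithelium. Tbx2 was at 14.8 to 27.99% in parotid epithelium and at 1.32 to 6.53% in submandibular epithelium. Tbx3 was at 0.306 to 1.37% in parotid epithelium and at 27.2 to 49.5% in submandibular epithelium. Single markers of that list ran from 0.319 to 53.5% in parotid epithelium, with a median of 1.36%, and from 0.335 to 11.8% in submandibular epithelium, with a median of 0.919%, over the means of the libraries. Tbx2 in both epithelia and Tbx3 in submandibular epithelium were above the marker sum of their own library in each, and Tbx3 in parotid epithelium was below the marker sum of its own library in each.

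Tbx1 in submandibular epithelium was at 153 to 496% of its mesenchyme, and the layers did not overlap, while in parotid epithelium it was at 0 to 4.24%. Tbx18 was at 0.0986 to 0.757% in parotid epithelium, below the marker sum in each library, and at 0 to 7.99% in submandibular epithelium, the highest value being that of replicate 3, whose marker sum was 2.83%. Tbx15 was at 0.291 to 1.42% in parotid epithelium, against 0 to 15.9% for submandibular epithelium, where its mesenchymal level was itself only 0.905 CPM. Tbx22 was at 0 to 4.34% in parotid and 0 to 10.03% in submandibular epithelium. The part of mesenchymal RNA in these low epithelial values was not tested.

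The log2 fold changes of epithelium over mesenchyme were, in parotid gland, -2.16 (SE 0.33) for Tbx2, -5.55 (SE 0.59) for Tbx1, -6.45 (SE 1.12) for Tbx22, -6.65 (SE 0.34) for Tbx3, -6.93 (SE 0.43) for Tbx15 and -8.23 (SE 0.58) for Tbx18. In submandibular gland they were 1.43 (SE 0.40) for Tbx1, -1.55 (SE 0.26) for Tbx3, -4.02 (SE 0.79) for Tbx15, -5.24 (SE 0.40) for Tbx2, -5.27 (SE 0.84) for Tbx22 and -5.87 (SE 0.75) for Tbx18. Several depend on 1 library. Without submandibular epithelium replicate 3 the values for Tbx2, Tbx18 and Tbx22 in that gland were -6.04, -9.19 and -7.66. Without submandibular epithelium replicate 1 that of Tbx15 was -5.52, and without submandibular mesenchyme replicate 3 it was -3.40. In parotid gland Tbx18 was at -9.01 without epithelium replicate 3 and Tbx22 at -9.92 without epithelium replicate 4. Over all groups, the order of mean levels was submandibular epithelium, parotid mesenchyme, submandibular mesenchyme and parotid epithelium for Tbx1, of which the mesenchymes did not differ beyond their spread. For Tbx2 and Tbx3 it began with parotid mesenchyme and then submandibular mesenchyme, for Tbx2 followed by parotid epithelium and for Tbx3 by submandibular epithelium, with no overlap between neighbours in the order. For Tbx15 the order was parotid mesenchyme, submandibular mesenchyme, parotid epithelium and submandibular epithelium, and submandibular mesenchyme and parotid epithelium overlapped. Tbx18 had this order too, with an overlap between the epithelia. Tbx22 ran from submandibular mesenchyme over parotid mesenchyme to the epithelia, which overlapped.

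The gland difference in epithelium minus that in mesenchyme was -6.98 (SE 0.72) for Tbx1, -5.10 (SE 0.40) for Tbx3 and 3.08 (SE 0.49) for Tbx2 on the log2 scale. These 3 of the 6 were called, 1 positive and 2 negative, where 20.9% of all genes were called, 8.67% positive and 12.2% negative. The value for Tbx2 was 3.89 without submandibular epithelium replicate 3. For Tbx15, Tbx18 and Tbx22 it was -2.91 (SE 1.51), -2.36 (SE 1.39) and -1.18 (SE 1.56), with SEs set by the few epithelial counts. Leaving out a library moved them far: that of Tbx15 was -1.40 without submandibular epithelium replicate 1 and -3.53 without submandibular mesenchyme replicate 3. That of Tbx18 was 0.97 without submandibular epithelium replicate 3, and leaving out replicate 3 of the parotid epithelium gave -3.14. That of Tbx22 was 1.22 without submandibular epithelium replicate 3, and leaving out replicate 4 of the parotid epithelium gave -4.63. For Tbx15 it was called with DESeq2, at -2.72, and with limma-voom, at -3.08.

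The genes beside the members were next examined, which the choice of the members did not use apart from reads in shared exon bases. They were the counted genes that overlap a member, and on either side the nearest gene within 500 kb that passed the filter on low counts. Annotated genes that lie nearer but did not pass it were left out. Of 14 tested, 1 was called between the epithelia and 7 between the mesenchymes, 6 higher and 1 lower in parotid, beside 20.9 and 34.5% of all genes. Some of them passed the filter on low counts only through parotid mesenchyme, so their calls there were in part fixed by it. Gm37374 had 567 counts there and at most 3 in any other group, and Gm43120 355 and at most 12. D030062O11Rik had 297 counts there and at most 32 elsewhere, and Gm43399 118 and at most 15. Tbx3os2 had 182 counts there and at most 38 elsewhere. 2 of the 14, Tbx3os1 and D030062O11Rik, share exon bases with a member, and of the other 12 there were 1 called between the epithelia and 5 between the mesenchymes, 4 higher and 1 lower in parotid. The library kit does not mark strand, so reads from a member and an antisense partner that shares its exons cannot be told apart.

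**Figure D4:**
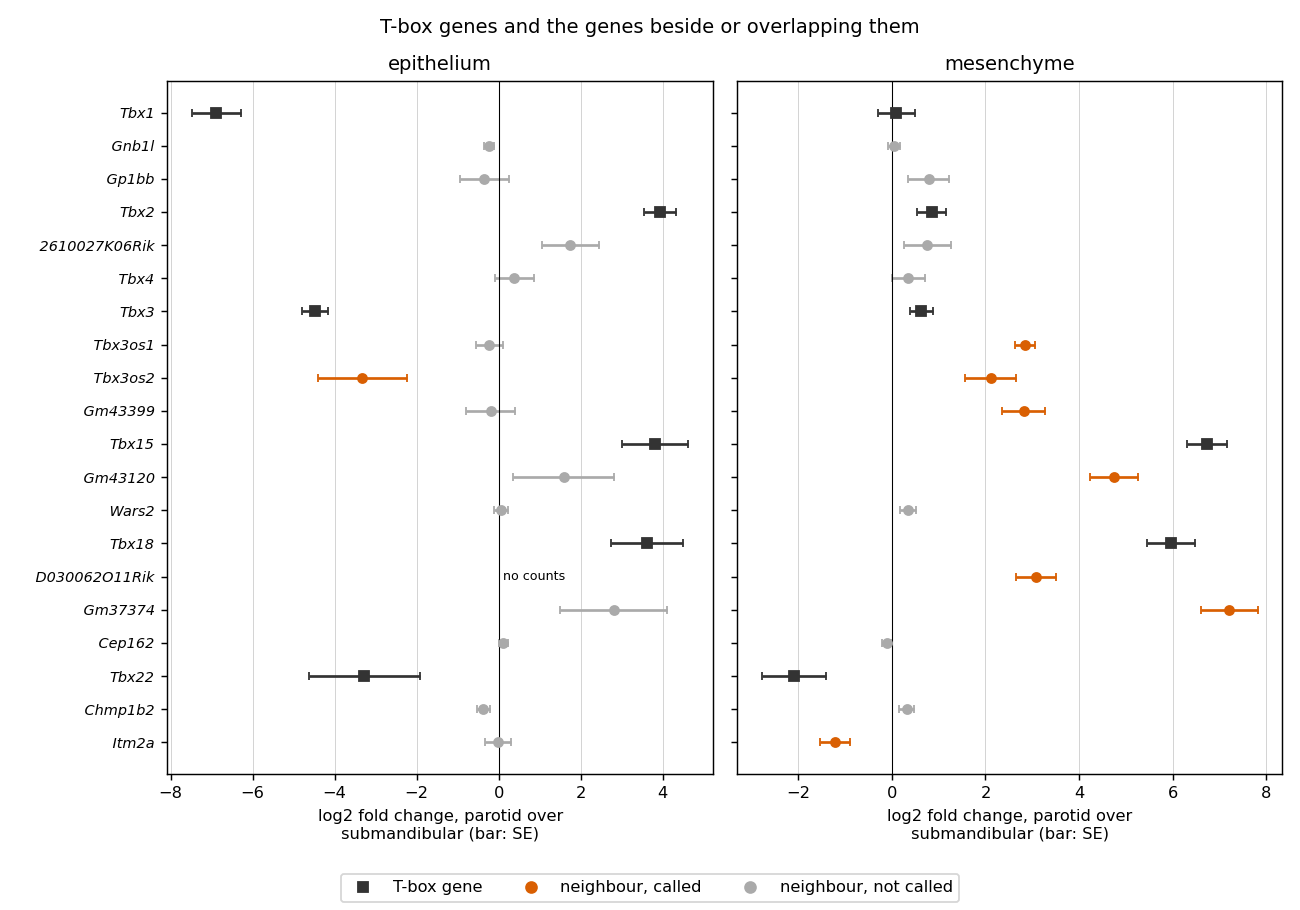
Log2 fold change of parotid over submandibular gland (bar, SE) in epithelium and in mesenchyme, for the 6 T-box genes (squares) and the genes overlapping or beside each (circles, listed under it; orange where called by edgeR). The noncoding transcripts beside Tbx3, Tbx15 and Tbx18 lie to the right in mesenchyme. Of the protein-coding neighbours only Itm2a was called, in mesenchyme, and Gp1bb lies there at 0.79 (SE 0.44).

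Tbx3os1, an annotated antisense transcript at the 5′ side of Tbx3, parted the mesenchymes far more than Tbx3 did. It was at 40.4, 31.6, 39.5 and 42.2 CPM in parotid mesenchyme, against 6.37, 4.49, 5.05 and 5.38 CPM in submandibular mesenchyme. The groups did not overlap, and the log2 fold change was 2.85 (SE 0.21, edgeR adjusted p = 3.70e-08). In epithelium it was at 0.324 ± 0.160 CPM in parotid libraries, against 0.370 ± 0.121 CPM in submandibular ones (SD, n = 4 each, edgeR adjusted p = 0.663). The gland difference was lower in epithelium than in mesenchyme by the interaction term, at -3.08 (SE 0.39, edgeR adjusted p = 2.86e-05). As a percentage of Tbx3 CPM, Tbx3os1 was at 8.24 to 15.8% in parotid epithelium, against 0.396 to 0.983% for submandibular epithelium, and at 11.9 to 16.1% in parotid mesenchyme and 2.497 to 3.60% in submandibular mesenchyme. In both layers this percentage was higher in the parotid libraries than in the submandibular ones, without overlap. In epithelium Tbx3os1 itself had only 28 counts in parotid and 38 in submandibular libraries. The difference in percentage there therefore comes from Tbx3, by which it is divided, and says nothing more about Tbx3os1. The transcripts share 115 exon bases, and 86 of the 31-base words of Tbx3 occur in Tbx3os1, so part of these reads could come from either.

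On the other side of Tbx3, the noncoding Tbx3os2 was at 2.17 ± 0.545 CPM in parotid mesenchyme, against 0.502 ± 0.438 CPM in submandibular mesenchyme (SD, n = 4 each, log2 fold change 2.11, SE 0.54, edgeR adjusted p = 0.00588), and at 2.89 without submandibular mesenchyme replicate 4. In epithelium it had 1 count in parotid and 16 in submandibular gland, a CPM ratio of 0.0680 with an exact 95% counting interval of 0.00162 to 0.438. The edgeR test called that difference (adjusted p = 0.0392), and the call was lost in 6 of 16 fits that left out a library, those without replicate 1, 2 or 3 of either epithelium, and with limma-voom. Its interaction term was -5.43 (SE 1.19, edgeR adjusted p = 0.00345). Tbx3os2 passed the filter on low counts only through parotid mesenchyme, so its mesenchymal call and this term were in part fixed by the filter. Farther away, Gm43399 was at 1.40 ± 0.353 CPM in parotid mesenchyme, against 0.195 ± 0.0574 CPM in submandibular mesenchyme (SD, n = 4 each, log2 fold change 2.82, SE 0.45, edgeR adjusted p = 0.000138).

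Around Tbx18 and Tbx15, noncoding transcripts were higher in parotid mesenchyme as well. Gm37374, on the strand of Tbx18 and 6.9 kb before its start, had 4.98, 5.31, 8.44 and 7.60 CPM in parotid mesenchyme, against 0.0510, 0, 0.103 and 0 CPM in submandibular mesenchyme. With 567 counts against 3, the CPM ratio was 171 with an exact 95% counting interval of 58.2 to 831 (edgeR adjusted p = 7.30e-07), and the log2 fold change of 7.21 was 8.17 without submandibular mesenchyme replicate 3. D030062O11Rik, which overlaps Tbx18 on the other strand, was at 3.50 ± 0.859 CPM in parotid mesenchyme, against 0.409 ± 0.228 CPM in submandibular mesenchyme (SD, n = 4 each, log2 fold change 3.08, SE 0.43, edgeR adjusted p = 0.000224). It shares 970 exon bases with Tbx18, so reads from that stretch cannot be told apart. Gm43120, antisense to Tbx15 with no shared exon base, was at 4.31 ± 1.01 CPM in parotid mesenchyme, against 0.153 ± 0.143 CPM in submandibular mesenchyme (SD, n = 4 each, log2 fold change 4.75, SE 0.52, edgeR adjusted p = 8.32e-06). Without submandibular mesenchyme replicate 1 its log2 fold change was 5.55.

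The noncoding 2610027K06Rik, 0.3 kb from Tbx2, was not called. It was at 2.08 ± 0.978 CPM in parotid mesenchyme, against 1.24 ± 0.674 CPM in submandibular mesenchyme (log2 fold change 0.76, SE 0.50, edgeR adjusted p = 0.256). Its epithelial level was 0.397 ± 0.133 CPM in parotid libraries, against 0.119 ± 0.0973 CPM in submandibular ones (1.75, SE 0.68, edgeR adjusted p = 0.0801), and that difference was called in 2 of 7 other settings.

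Most protein-coding neighbours did not pass the test between the glands. Wars2, the mitochondrial tryptophan-tRNA synthetase gene 1.2 kb from Tbx15, was at 18.8 ± 2.06 CPM in parotid mesenchyme, against 14.8 ± 1.13 CPM in submandibular mesenchyme (edgeR adjusted p = 0.136). Cep162, a centriole gene and the nearest gene that passed the filter to one side of Tbx18, was at 26.4 ± 0.733 CPM in parotid mesenchyme, against 28.5 ± 1.97 CPM in submandibular mesenchyme (edgeR adjusted p = 0.430). Gnb1l and Gp1bb beside Tbx1 had log2 fold changes of -0.24 (SE 0.13) and -0.35 (SE 0.60) in epithelium, where Tbx1 had -6.89. Itm2a, a membrane protein gene 264.6 kb from Tbx22, was the exception and had the sign of Tbx22: it was at 2186 ± 40.7 CPM in parotid mesenchyme, against 5106 ± 626 CPM in submandibular mesenchyme (SD, n = 4 each, log2 fold change -1.22, SE 0.32, edgeR adjusted p = 0.00801). In epithelium Itm2a was at 104 ± 13.0 CPM in parotid libraries, against 105 ± 76.3 CPM in submandibular ones, a log2 fold change of -0.01 that was 0.65 without submandibular epithelium replicate 3.

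Of the other T-box genes, 11 were listed and 6 passed the filter on low counts, and none of these 6 was called between the epithelia by edgeR, DESeq2 or limma-voom. With edgeR 0 of the 6 had an unadjusted p under 0.05, and Tbr1 had a log2 fold change of 0.78 (SE 0.70). Between the mesenchymes 1 was called, Tbx5, which passed the filter only through parotid mesenchyme, so that its call was in part fixed by the filter. Tbx5, which with Tbx3 forms a conserved pair of neighbours and patterns the forelimb and the heart, was at 2.20, 2.85, 2.29 and 1.21 CPM in parotid mesenchyme, against 0.204, 0, 0.0516 and 0.0544 CPM in submandibular mesenchyme. The groups did not overlap (log2 fold change 4.68, SE 0.64, edgeR adjusted p = 0.000207), it was at 5.73 without submandibular mesenchyme replicate 1, and no count was found in any of the 8 epithelial libraries. Its low level in parotid mesenchyme was at least 63.6-fold higher than in parotid epithelium, with 3 counts over the 4 epithelial libraries as the floor. The neighbour of Tbx2, Tbx4, a hindlimb and lung gene, was at 4.42 ± 0.766 CPM in parotid mesenchyme, against 3.45 ± 1.95 CPM in submandibular mesenchyme and was not called (edgeR adjusted p = 0.465).

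Mga, a large factor with a T-box and a further DNA-binding domain, was at 100.4 ± 29.7 CPM in parotid epithelium, 102 ± 11.3 in submandibular epithelium, 81.6 ± 11.6 in parotid mesenchyme and 104 ± 5.57 in submandibular mesenchyme (SD, n = 4 each). It was not called between the glands in either layer (edgeR adjusted p = 0.937 in epithelium and 0.0975 in mesenchyme), and between the mesenchymes it was called in 2 of 7 other settings and in 2 of 16 fits that left out a library, without parotid epithelium replicate 1 or 3. T, Tbx6 and Tbr1 had means of at most 2.14 CPM, and Tbr1 reached 5.64 CPM in replicate 2 of parotid mesenchyme alone. Tbx10, Tbx19, Tbx20, Tbx21 and Eomes did not pass the filter. Between the layers, 4 of the 6 tested were called lower in epithelium in parotid gland and 5 of the 6 in submandibular gland. Of all genes, 64.9% were called in parotid gland, 33.5% lower, and 67% in submandibular gland, 33.7% lower. The medians of the 6 were -2.80 and -2.90 on the log2 scale, beside 0.00 (-0.0044) and 0.01 over all genes.

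Genes tied to the members in other organs were taken from 4 further lists, of which 68 of 82 distinct genes, with the other T-box genes included, were tested. Over them 16 were called between the epithelia and 33 between the mesenchymes, beside 20.9 and 34.5% of all genes. In the list for Tbx1, 18 genes were tested. In epithelium 4 were higher and 1 lower in parotid, 3 in all without parotid epithelium replicate 4, with a median log2 fold change of 0.37 beside 0.00 (-0.0016) over all genes, and in mesenchyme 7 were higher and 5 lower, with a median of 0.23 beside 0.04. Cyp26b1, an enzyme of retinoic acid breakdown, was lower in parotid in both layers, at 3.59 ± 1.78 CPM in parotid epithelium, against 12.1 ± 2.43 CPM for submandibular epithelium (SD, n = 4 each, log2 fold change -1.75, edgeR adjusted p = 0.000379). Cyp26a1, its relative, was lower in parotid mesenchyme, at 2.47 ± 0.530 CPM in parotid libraries, against 12.3 ± 7.55 CPM in those of submandibular mesenchyme (-2.31, edgeR adjusted p = 0.000231), and did not pass in epithelium (adjusted p = 0.811). Msc, a repressor of muscle genes in head muscle precursors, was higher in parotid mesenchyme, at 31.7 ± 15.2 CPM in parotid libraries, against 4.56 ± 1.74 CPM in those of submandibular mesenchyme (2.80, edgeR adjusted p = 0.000286), beside the higher muscle markers there. Wnt5a, a noncanonical WNT ligand, was at 54.2 ± 15.2 CPM in parotid mesenchyme, against 11.5 ± 14.2 CPM in submandibular mesenchyme (2.25, edgeR adjusted p = 0.00862), lost its call with DESeq2, and was at 3.64 without submandibular mesenchyme replicate 4. Crkl, an adaptor gene that acts with Tbx1 in arch development, was called higher in parotid in both layers at log2 fold changes of 0.35 and 0.34 in epithelium and mesenchyme, and lost the call in 8 and 7 of 16 fits that left out a library. In epithelium these were the fits without replicate 2, 3 or 4 of parotid epithelium, replicate 1 or 2 of submandibular epithelium, parotid mesenchyme replicate 4 or submandibular mesenchyme replicate 2 or 3. In mesenchyme they were those without any 1 parotid mesenchyme library or submandibular mesenchyme replicate 1, 2 or 3. Crkl also lost the call in 1 of 7 other settings in epithelium and in 2 of 7 in mesenchyme.

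In the list for Tbx2 and Tbx3, 18 genes were tested. In epithelium 3 were higher and 1 lower in parotid, with a median log2 fold change of 0.23, and in mesenchyme 5 were higher and 2 lower, with a median of 0.29. Of all genes, 20.9% were called between the epithelia and 34.5% between the mesenchymes, with medians of 0.00 (-0.0016) and 0.04. Il33, an alarmin cytokine, was at 157 ± 60.6 CPM in parotid epithelium, against 5.54 ± 1.10 CPM for submandibular epithelium (SD, n = 4 each, log2 fold change 4.82, SE 0.36, edgeR adjusted p = 4.05e-07). Axin2, a feedback inhibitor and common readout of WNT signalling, was at 17.1 ± 5.20 CPM in parotid epithelium, against 3.27 ± 0.771 CPM in submandibular epithelium (2.38, SE 0.24, edgeR adjusted p = 4.16e-06), and the gland difference was larger there than in mesenchyme (interaction 1.89, edgeR adjusted p = 0.000515). Lef1, a nuclear effector of WNT signalling, was higher in parotid mesenchyme, at 23.8 ± 6.64 CPM in parotid libraries, against 5.69 ± 1.78 CPM in those of submandibular mesenchyme (2.06, edgeR adjusted p = 0.000175). Bmp7, a BMP ligand, was lower in parotid mesenchyme, at 23.3 ± 5.29 CPM in parotid libraries, against 161 ± 23.1 CPM in those of submandibular mesenchyme (-2.79, SE 0.18, edgeR adjusted p = 9.04e-09), and did not pass in epithelium (0.30, adjusted p = 0.216). Cdkn1a, a cell cycle inhibitor that Tbx2 and Tbx3 repress in cell culture, was at 9.88 ± 1.90 CPM in parotid epithelium, against 10.2 ± 1.03 CPM in submandibular epithelium (edgeR adjusted p = 0.932) and was higher in parotid mesenchyme, at 22.6 ± 10.2 CPM in parotid libraries, against 6.66 ± 1.55 CPM in those of submandibular mesenchyme (1.76, adjusted p = 0.000265). The mesenchymal libraries of Cdkn1a overlapped, with parotid replicate 4 at 8.07 CPM and submandibular replicate 3 at 8.92 CPM. Msx1, a homeobox repressor, was at 24.9 ± 19.4 CPM in parotid mesenchyme, against 3.46 ± 0.522 CPM in submandibular mesenchyme (2.84, edgeR adjusted p = 0.000981), and at 2.22 (2.215) without parotid mesenchyme replicate 2.

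**Figure D5:**
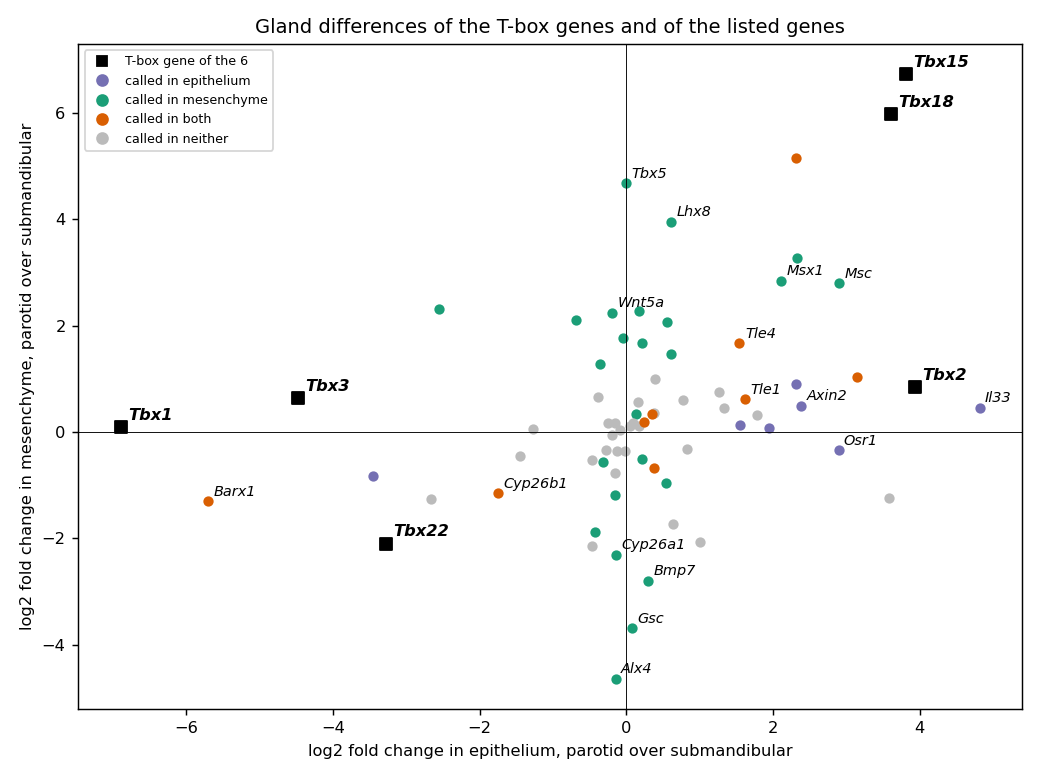
Log2 fold change of parotid over submandibular gland in epithelium (x axis) against that in mesenchyme (y axis), for the 6 T-box genes (squares) and 68 listed genes (circles, coloured by where edgeR called them). Tbx1 and Tbx3 lie far left near the horizontal line, Tbx15 and Tbx18 at the upper right, and Il33 and Alx4 at the right and lower edges.

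In the list for Tbx15, Tbx18 and Tbx22, 18 genes were tested. In epithelium 2 were higher and 2 lower in parotid, with a median log2 fold change of 0.19, and in mesenchyme 7 were higher and 3 lower, with a median of 0.66. Over all genes 20.9% were called in epithelium and 34.5% in mesenchyme, with medians of 0.00 (-0.0016) and 0.04. Lhx8, a homeobox gene of jaw and palate mesenchyme, was at 119 ± 13.6 CPM in parotid mesenchyme, against 7.70 ± 4.67 CPM in submandibular mesenchyme (SD, n = 4 each, log2 fold change 3.96, SE 0.63, edgeR adjusted p = 0.000217). Alx4 and Gsc, homeobox genes of face and jaw mesenchyme, were lower in parotid mesenchyme. Alx4 was at 7.42 ± 3.04 CPM in parotid mesenchyme, against 185 ± 24.6 CPM in submandibular mesenchyme (-4.64, SE 0.42, edgeR adjusted p = 8.08e-07), and Gsc at 2.32 ± 1.01 CPM in parotid libraries, against 29.7 ± 16.3 CPM in submandibular ones (-3.69, SE 0.51, edgeR adjusted p = 3.44e-05). In epithelium the homeobox gene Barx1 was at 0.521 ± 0.450 CPM in parotid libraries, against 27.4 ± 10.8 CPM in submandibular ones (-5.70, SE 0.40, edgeR adjusted p = 2.41e-07), and at -6.39 without parotid epithelium replicate 3. Barx1 was lower in parotid mesenchyme too, at 193 ± 33.1 CPM in parotid libraries, against 476 ± 28.5 CPM in those of submandibular mesenchyme (-1.301, adjusted p = 0.00128). Osr1, a zinc finger gene of early mesenchyme, was at 31.1 ± 9.48 CPM in parotid epithelium, against 4.21 ± 0.893 CPM in submandibular epithelium (2.89, SE 0.21, edgeR adjusted p = 1.44e-07), and did not pass in mesenchyme (-0.34, adjusted p = 0.154).

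Among 13 tested genes of cofactors and corepressors, 4 were called between the epithelia, each higher in parotid, with a median log2 fold change of 0.14 over the 13 (1 more was lower at an unadjusted p under 0.05), and 5 were higher and 2 lower in parotid mesenchyme, with a median of 0.17. All genes tested had 20.9% called in epithelium and 34.5% in mesenchyme, with medians of 0.00 (-0.0016) and 0.04. The count of this list in mesenchyme was 4 without parotid mesenchyme replicate 3 or without submandibular mesenchyme replicate 1. The Groucho corepressor gene Tle4 was higher in parotid in both layers, at 81.6 ± 10.9 CPM in parotid libraries, against 28.1 ± 9.26 CPM in those of submandibular epithelium (log2 fold change 1.54, edgeR adjusted p = 0.000214) and 123 ± 17.6 CPM in parotid libraries, against 38.5 ± 12.8 CPM in those of submandibular mesenchyme (1.67, adjusted p = 3.42e-05). Tle1, of the same family, was higher in parotid epithelium, at 44.1 ± 9.72 CPM in parotid libraries, against 14.3 ± 3.13 CPM in those of submandibular epithelium (1.62, edgeR adjusted p = 3.09e-05). Its smaller difference in mesenchyme (0.61, edgeR adjusted p = 0.0190) lost the call without parotid mesenchyme replicate 3 and without submandibular mesenchyme replicates 1, 2 or 3. That call was also lost in 2 of 7 other settings. Ncor1, a subunit of a histone deacetylase complex, was called higher by 0.24 in epithelium and 0.19 in mesenchyme, and lost the call in 4 and 12 of 16 fits that left out a library. In epithelium these were the fits without parotid epithelium replicate 2, 3 or 4 or replicate 1 of submandibular epithelium. In mesenchyme they were those without any 1 parotid mesenchyme library, submandibular mesenchyme replicate 1 or 3, or replicate 2, 3 or 4 of either epithelium. The mesenchymal call of Ncor1 was also lost in 4 of 7 other settings, over which its log2 fold change ran from 0.015 to 0.19.

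The genes whose pattern over the 16 libraries was most like that of a member were found by Pearson's r of log2 CPM (0.5 CPM added) over 11467 genes. The 16 points fall into 4 groups, so r mostly follows the group means, and it is given as a description. Among the members themselves the highest r was 0.951, between Tbx15 and Tbx18, and that of Tbx2 with Tbx3 was 0.28. The closest to Tbx1 were Sulf1, a heparan sulfate sulfatase (r = 0.952), Id1, a BMP target (0.946), and Fosl2 (0.931). Sulf1 was at 3.21 ± 1.54 CPM in parotid epithelium, against 115 ± 55.8 CPM in submandibular epithelium, and Id1 at 4.12 ± 1.24 CPM in parotid epithelium, against 70.6 ± 24.2 CPM in submandibular epithelium (SD, n = 4 each). Closest to Tbx2 were 2510009E07Rik (0.989), Rabep1, an endosome gene (0.984), and the calcium channel gene Cacna1h (0.981), and closest to Tbx3 were Dlk1 (0.980), the ephrin receptor gene Epha7 (0.979) and the noncoding Mirg (0.973). Dlk1 and Mirg come from the same imprinted cluster. The closest to Tbx15 were Trhde (0.989), Vstm2a (0.985) and Cntnap4 (0.985), and to Tbx18 Slc44a5 (0.989), Ramp3 (0.989) and Abi3bp (0.988). Vstm2a, a secreted protein gene, was at 282 ± 96.7 CPM in parotid mesenchyme, against 0.680 ± 0.378 CPM in submandibular mesenchyme. The closest to Tbx22 were Hand2, a factor of ventral jaw mesenchyme (0.987), Dlg2 (0.986) and Prkg2 (0.983), and Hand2 was at 3.44 ± 0.515 CPM in parotid mesenchyme, against 11.6 ± 3.23 CPM in submandibular mesenchyme.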

How the data were processed

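Per the labels' protocols, cDNA from epithelium and mesenchyme of the 2 glands was made with a SMART-Seq kit and tagmented with a Nextera kit. These do not mark strand. STAR 2.5.2a, edgeR and build GRCm38 are named in the submitters' processing notes. The submitted labels and notes do not say how reads were assigned to genes. The authors deposited raw counts per gene, which were analysed, and a second table of counts for a filtered set. The other table the authors deposited held a normalized signal, by its name CPM with TMM scaling. It was used to match the symbols and differed from the CPM recomputed here by at most 4.34% for the 6 genes. The cause of that difference was not tested.

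The counts of the 16 libraries were fitted in edgeR 4.0.16 under R 4.3.3 with a coefficient for each group (robust quasi-likelihood, TMM scaling, filterByExpr), and genes at a Benjamini-Hochberg adjusted p under 0.05 over 18191 genes are counted as called. SEs were derived from the F statistic. CPM per kb used union exon lengths of GENCODE M21, which also gave positions and neighbours. The scripts were tested on simulated counts. DESeq2 1.42.0, limma-voom (limma 3.58.1), other scalings and filters, a block for the replicate number and leaving out each library were alternatives. Intervals cover counting error only.

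The members, the gene lists and the tests were chosen with earlier results of these data known. Named were all members, all listed T-box genes, neighbours, the 3 genes most like each member (among genes of at least 10 CPM in a group), and from each list and gland contrast up to 4 called genes with the largest changes, at 5 CPM or more. Some genes this rule names are not reported here. Replicate libraries of a group were compared and no pair was closer than sampling noise (chi-square at least 10 per gene).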

Additional observations from a re-analysis of the deposited data

Results flagged for a closer look

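Among 24 sets of 4 libraries (6 genes in 4 groups), 6 held a library that stood apart from the other 3 by Dixon's criterion. For normally distributed values chance gives about 1 in 20, and over all genes tested 6.78% of such sets held one. In sets near 0 counts a few reads fix the outcome. Tbx1 in parotid mesenchyme was low in replicate 4, at 2.56 CPM against 6.35 to 7.13 CPM in the others. In submandibular epithelium replicate 3 was high for 3 genes: Tbx2 at 5.67 CPM against 1.15 to 1.54 CPM, Tbx18 at 0.848 CPM against 0 to 0.0403 CPM, and Tbx22 at 2.38 CPM against 0 to 0.256 CPM. Tbx15 in parotid mesenchyme was high in replicate 1, at 121.5 CPM against 86.2 to 89.3 CPM. Tbx22 in parotid epithelium had 0.241 CPM in replicate 4 and 0 CPM in the others.

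Tbx3 had gland differences of opposite sign in the layers, with a log2 fold change of -4.47 in epithelium and 0.63 in mesenchyme. The mesenchymal difference was not called. The glands overlapped in neither layer, where 20.7% of all genes did not overlap between the epithelia and 36.8% between the mesenchymes. The interaction of -5.10 is a description, since Tbx3 was chosen for its pattern. Its neighbours had a gland difference that was lower in epithelium than in mesenchyme by edgeR's interaction term, at -3.08 for Tbx3os1 (adjusted p = 2.86e-05) and -5.43 for Tbx3os2 (adjusted p = 0.00345). Tbx3os2 passed the filter on low counts only through parotid mesenchyme, so its term was in part fixed by the filter.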

How the results depend on the processing

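Of 690 recomputed log2 fold changes of the 6 members, 652 kept direction and call, 24 kept direction and lost the call, 8 gained one and 6 changed sign, none of them called. The 6 were Tbx1 between the mesenchymes, at -0.070 with library totals alone and from -0.033 to 0.35 without 1 library, and the interactions of Tbx18, from -3.14 to 0.97 without 1 library, and of Tbx22, at 0.032 with limma-voom and from -4.63 to 1.22 without 1 library. Leaving out a library, the number of genes called ran from 2452 to 4540 between the epithelia, where it was 2452 without submandibular epithelium replicate 1 and 3801 with all libraries (the cause was not tested), from 5325 to 6685 between the mesenchymes, 11200 to 12011 and 11645 to 12516 between the layers of parotid and submandibular gland, and 3152 to 3922 for the interaction. The other log2 fold changes that changed sign were not called either with all libraries. Between the epithelia, leaving out a library, Itm2a ran from -0.20 to 0.65, Alx4 from -1.27 to 1.09, Cdkn1a from -0.12 to 0.10, Cyp26a1 from -0.28 to 0.10, Gm43399 from -0.54 to 0.32, Gp1bb from -0.72 to 0.050, Gsc from -1.28 to 0.59, Lhx8 from -0.86 to 2.72, Mga from -0.20 to 0.12, Tbx3os1 from -0.54 to 0.024, Tbx6 from -0.86 to 0.20, Wars2 from -0.057 to 0.18 and Wnt5a from -0.49 to 0.031. Between the mesenchymes Gnb1l ran from -0.012 to 0.12, T from -0.80 to 0.27 and Tbr1 from -0.51 to 0.91. In other settings Alx4 was at 0.38, Gsc at -0.36 and Itm2a at 0.24 between the epithelia with limma-voom, Itm2a at 0.024 and Mga at 0.0075 with no filter, Itm2a at 0.12 with the replicate number as a block, and Gnb1l between the mesenchymes at -0.13 with library totals alone and -0.024 with a filter of 1 CPM in 4 libraries. Scaling by library totals alone moved the median log2 fold change of all genes to -0.14 between the mesenchymes, against 0.04, and the share of called genes that were higher to 37.4%, against 60.3%; for the interaction that share was 59.8%, against 41.5%. Same-numbered libraries correlated at -0.138 to 0.279 in their deviations from group means. Between submandibular epithelium and mesenchyme r was 0.279, 0.269, 0.0484 and 0.0509 for replicates 1 to 4. There the same number was the best match for each but replicate 3. Whether the numbers pair libraries was thus not settled, and the main fit used no pairing. With the replicate number as a block, 3980, 6343, 11803, 12176 and 3871 genes were called in the 5 comparisons, against 3801, 6282, 11804, 12186 and 3799 without it. Depth limits Tbx15 in submandibular epithelium and Tbx22 in parotid epithelium, with 5 counts each.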
